A study of Mus musculus with 12 samples.

Results

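The genes described here are 9 B-cell surface co-receptors and antigens, Cd22, Cd72, Cd38, Cr2, Ms4a1, Fcmr, Cd24a, Fcrla and Slamf6. They were taken by name from a table of 21885 mouse genes, and all 9 were found in it. Expression was measured by RNA-seq of sorted mouse cells in 12 libraries, 4 in each of 3 groups. The P80R B-ALL libraries were made from GFP-positive leukaemia cells that carried the PAX5 P80R mutation, taken from the primary recipient mice numbered 1300, 1301, 1302 and 1308. B-ALL stands for acute lymphoblastic leukaemia of the B lineage. The Pax5 KO libraries were made from Pax5-/- fetal liver cells sorted as common lymphoid progenitors and pre-pro-B cells (CLP/Pre-pro-B). The Pax5 WT libraries were made from Pax5+/+ fetal liver cells sorted at the pro-B to pre-BI stage. Genotype therefore came with another sorted stage in each comparison, and the 2 cannot be told apart. The sources used here do not give how P80R was introduced, the cells it was introduced into or the ages of the animals.

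Pax5 is the transcription factor that holds cells in the B lineage, and many genes of the B-cell surface are among those it is known to activate. Several of the proteins described here tune the signal of the B-cell receptor. CD22 and CD72 recruit phosphatases through inhibitory tyrosine motifs, and complement receptor CD21 amplifies the signal. Some of the others bind immunoglobulin, bind neighbouring cells or act as enzymes on the outer membrane. CD20, CD22 and CD38 are also known as targets of therapeutic antibodies against human B-cell cancers.

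Values below are scaled read counts, in which whole counts had been divided by 1 factor per library. Depth was 24914250 to 29386256 reads per library in P80R B-ALL, 36871775 to 43513852 in Pax5 KO and 33191950 to 39465256 in Pax5 WT. Pax5 itself was at 847, 1146, 1316 and 255 in recipients 1300, 1301, 1302 and 1308, between 229.9 and 267 in Pax5 KO and between 6194 and 7315 in Pax5 WT, so the labels of the fetal liver libraries matched its level. Whether the Pax5 KO reads fell in the deleted part cannot be seen in counts per gene. The leukaemia libraries varied more than the others, with a median standard deviation over 12179 genes of 0.47 on the log2(value + 1) scale, against 0.11 in Pax5 KO and 0.16 in Pax5 WT. A list of 12 pro-B and pre-B marker genes summed to 78698 to 192487 in P80R B-ALL, 48651 to 50247 in Pax5 KO and 271843 to 312680 in Pax5 WT. Each of the 12 was above 0 in at least 1 library of every group. Only 11 were above 0 in recipients 1300 and 1302 and in Pax5 KO libraries 2, 3 and 4.

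Recipients 1300 and 1308 stood apart in erythroid and in granulocyte and monocyte markers. The sum of 12 erythroid markers was 417417 in recipient 1300, 38976 in 1301, 32783 in 1302 and 1072210 in 1308, against 175 to 227 in Pax5 KO and 96.9 to 181 in Pax5 WT. Granulocyte and monocyte markers summed to 150687, 9628, 3923 and 257669 in the same recipients, against 9080 to 9851 in Pax5 KO and 61.3 to 97.3 in Pax5 WT. For 11 plasmacytoid dendritic markers the sum was 253192 in recipient 1308 and 11863 to 18907 in the other recipients. It was 16718 to 18011 in Pax5 KO and 8559 to 9444 in Pax5 WT. Recipient 1308 also held the highest sum of mature B-cell markers, 166503, where the other recipients had 15595 to 80873, Pax5 KO 1591 to 1811 and Pax5 WT 3396 to 3597. Among these, Fcer2a, which encodes the IgE receptor CD23, was at 0 in recipients 1300, 1301 and 1302 and at 334.9 in 1308. Cd40 was at 7.89, 43.1 and 95.5 in the first 3 recipients and at 1331 in 1308, and the class II gene H2-Aa at 617, 573, 1499 and 85258 in the order 1300, 1301, 1302 and 1308. Recipient 1301 was the highest for 8 plasma cell markers, at 247445, against 13306 to 90754 in the other recipients. Pax5 KO held 108011 to 119096 and Pax5 WT 9577 to 10020. Because this list was also high in Pax5 KO, its sum does not by itself show plasma cells. Whether other cell types were present, and their part in the values below, was not tested. In bulk libraries such as these, fewer cells of a type and less RNA per cell cannot be told apart.

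**Figure D1:**
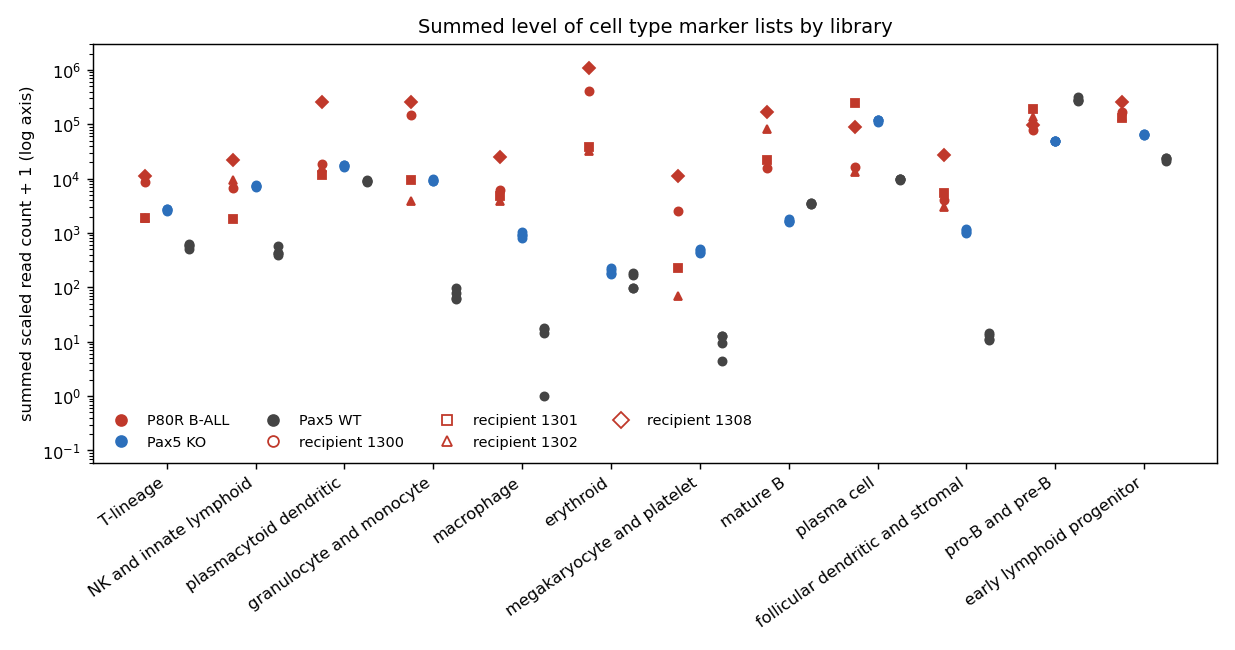
Summed level of each list of cell type markers in every library (scaled read counts + 1, log axis), with 1 symbol per recipient for P80R B-ALL (left of each set), then Pax5 KO and Pax5 WT. Recipient 1308 is highest for the erythroid list at 1072210 and for the mature B list at 166503.

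The promoters are shown because all 9 genes fell in Pax5 KO against Pax5 WT, where 30.3% of all genes tested fell. For Cd38, Cr2 and Ms4a1 the filter on low values fixed that direction, as given below. RefSeq promoter sequence (build GRCm38.p6) was at hand for 7 of the 9 genes (not Cd24a and Ms4a1), and the 250 bases before the annotated start were searched on both strands for 7 short motifs. The pattern of EBF, the B-lineage factor family of Ebf1, was searched as TCCC and GGGA with any 2 bases between them and matched only the Cd22 promoter among these 7, from base 49 to base 40 before the start. It occurred in 0.779% of 32851 promoters of the same length. The Ets and PU.1 pattern AGGAAGT matched only that of Cd72, on the minus strand from base 49 to base 43, and occurred in 7.69% of all promoters. The Ikaros core TGGGAA matched Cd22, Cd38 and Cr2 and 21.6% of all promoters. The E-box CANNTG was present in all 7 and in 66.2% of all promoters, the GC box GGGCGG in Cr2 and in 32.7%, the octamer ATTTGCAT in none of the 7 and in 1.6%, and TATAAA in none of the 7 and in 12.4%. Matches to different motifs did not overlap in these 7. A match is a string of letters and not a measured binding site. Printed below are 3 promoters of genes with unlike levels across the groups, chosen with their values known, Cd22 at chr7:30879029-30879278 (minus strand), Cd72 at chr4:43454627-43454876 (minus strand) and Cd38 at chr5:43868559-43868808 (plus strand). Capitals mark the EBF and Ikaros matches of Cd22, the reverse complement of the Ets match in Cd72 and the Ikaros match of Cd38.
Cd22: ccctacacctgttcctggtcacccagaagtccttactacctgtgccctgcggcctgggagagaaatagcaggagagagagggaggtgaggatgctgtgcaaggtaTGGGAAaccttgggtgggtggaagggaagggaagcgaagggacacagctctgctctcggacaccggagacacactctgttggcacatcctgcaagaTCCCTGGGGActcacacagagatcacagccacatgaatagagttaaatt
Cd72: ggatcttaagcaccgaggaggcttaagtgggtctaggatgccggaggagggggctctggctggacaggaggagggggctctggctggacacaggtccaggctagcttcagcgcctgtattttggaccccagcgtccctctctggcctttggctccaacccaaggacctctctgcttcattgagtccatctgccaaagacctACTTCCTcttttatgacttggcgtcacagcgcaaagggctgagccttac
Cd38: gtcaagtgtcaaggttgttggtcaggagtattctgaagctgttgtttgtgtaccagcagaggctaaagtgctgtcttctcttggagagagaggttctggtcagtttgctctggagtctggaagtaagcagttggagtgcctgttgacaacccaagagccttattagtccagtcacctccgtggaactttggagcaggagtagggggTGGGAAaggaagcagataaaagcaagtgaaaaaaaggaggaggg

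Cd22 encodes an inhibitory lectin (ENSMUSG00000030577) that binds sialic acid on the same and on neighbouring cells. It was at 4190.2, 1539, 4053 and 2584 in recipients 1300, 1301, 1302 and 1308. In Pax5 KO it was at 726, 844, 829.8 and 743, and in Pax5 WT at 6071, 5743, 5731 and 4618. Every leukaemia library lay above every Pax5 KO library and below every Pax5 WT library, so the 3 groups did not overlap. In P80R B-ALL, Cd22 fell by 0.94 ± 0.30 (SE) on the log2(value + 1) scale against Pax5 WT (limma, adjusted p = 0.0299). It rose by 1.87 ± 0.30 against Pax5 KO (adjusted p = 0.00204). Cd22 fell by 2.81 ± 0.09 in Pax5 KO against Pax5 WT (adjusted p = 5.34e-11). The call against Pax5 WT was lost without recipient 1308 (adjusted p = 0.0581) and without Pax5 WT library 1, 2 or 3 (adjusted p = 0.0780, 0.0724 and 0.0726). Among the 9 genes Cd22 had the smallest spread between recipients, with a standard deviation of 0.68 on the log2 scale, and 33.7% of all genes varied more in the leukaemias.

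Cd72 encodes a C-type lectin (ENSMUSG00000028459) that inhibits the B-cell receptor and binds the semaphorin CD100. It was at 3384, 81.2, 4.96 and 1633 in recipients 1300, 1301, 1302 and 1308. Pax5 KO libraries held 2452, 2579.5, 2194 and 2462, and Pax5 WT libraries 3281, 3334, 3633 and 3926. The leukaemias split, with recipient 1300 inside the Pax5 WT range and recipient 1302 at the level of 4 reads. Against Pax5 WT the fitted difference was -3.95 ± 1.74, with a 95% interval of -7.90 to -0.01 and an adjusted p of 0.0998, and against Pax5 KO it was -3.41 ± 1.74 (adjusted p = 0.151). Without recipient 1300 both passed the threshold, at -5.25 (adjusted p = 0.0269) against Pax5 WT and -4.70 (adjusted p = 0.0465) against Pax5 KO. Without recipients 1300 and 1308 they were -7.32 (adjusted p = 0.000911) and -6.77 (adjusted p = 0.00134) in the same order. Other settings made them smaller: without recipient 1302 they were -2.20 and -1.65, and with edgeR on recovered reads -1.46 (adjusted p = 0.390) and -0.84 (adjusted p = 0.627). DESeq2 gave -1.42 and -0.84. Between the fetal liver groups Cd72 changed least of the 9 genes: in Pax5 KO it fell by 0.55 ± 0.08 (adjusted p = 3.71e-05). That call was lost when all 12 libraries shared 1 estimate of the spread (adjusted p = 0.800) and when each group was weighted in such a fit (adjusted p = 0.301).

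Exons of Cd72 overlap those of the kinase gene Tesk1 on the opposite strand over 1423 bases in an older annotation, and the library kit does not mark strand. Tesk1 was at 181, 132, 102 and 725 in recipients 1300, 1301, 1302 and 1308, at 559 to 683 in Pax5 KO and at 391 to 590.3 in Pax5 WT. Both genes were lowest in recipient 1302, and Tesk1 was highest in recipient 1308 while Cd72 was highest in recipient 1300. The part of shared reads in either value was not tested. Cd22 overlaps the unnamed gene model Gm29439 over 479 bases on the opposite strand, which has no row in the table.

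**Figure D2:**
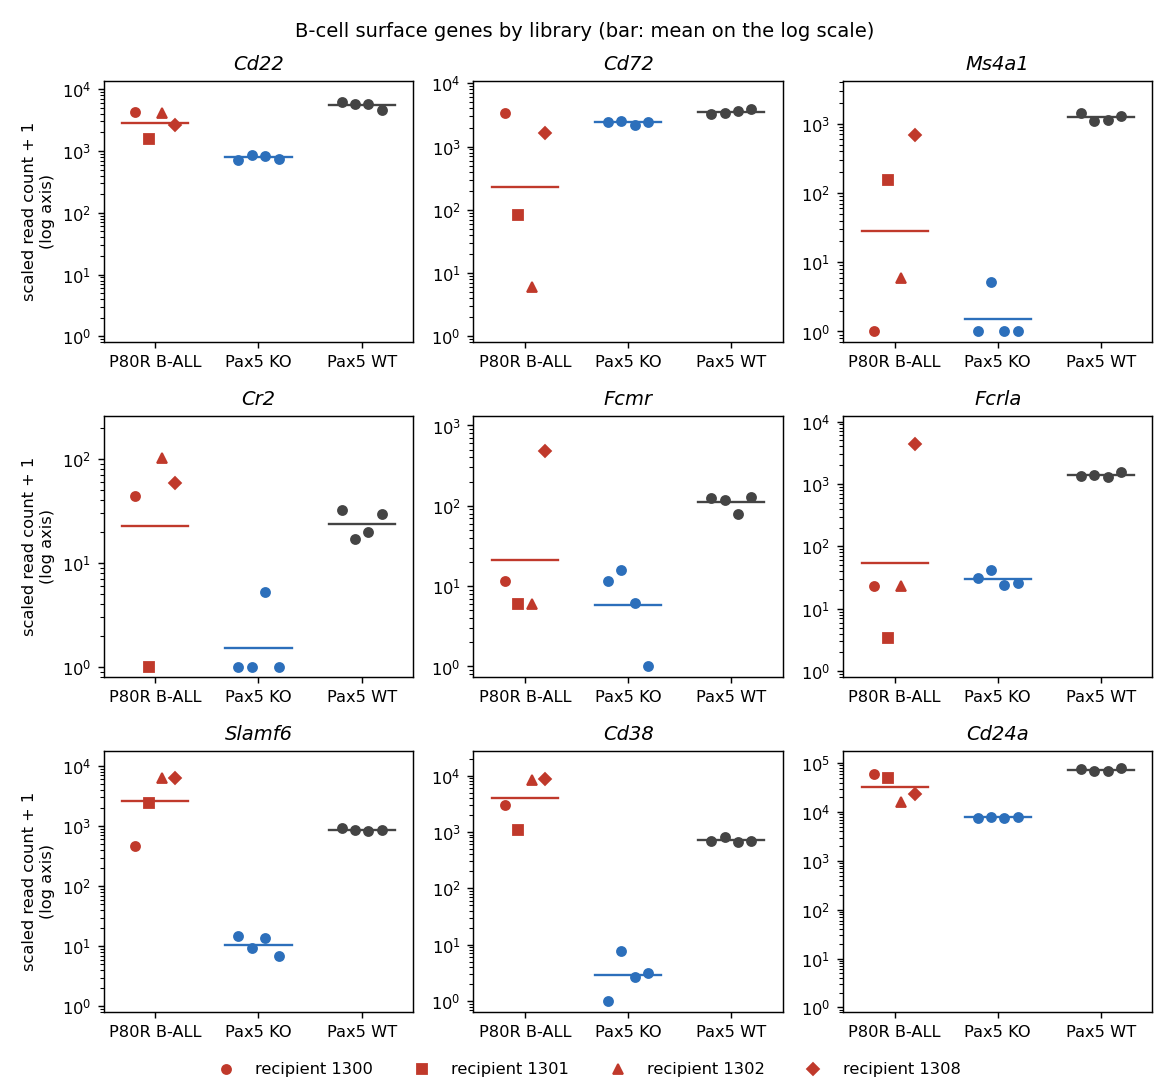
Scaled read count + 1 (log axis) of the 9 genes in each library of P80R B-ALL (1 symbol per recipient), Pax5 KO and Pax5 WT, with the group's mean on the log scale as a bar. Cd22 forms 3 separate groups, while Cd72 in the leukaemias runs between 4.96 and 3384.

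Cr2 encodes complement receptors CD21 and CD35 (ENSMUSG00000026616), which in mice come from 1 gene and are known from mature B cells and follicular dendritic cells. Its mean per kilobase of exon was the lowest of the 9 in each group, though not in every library. The leukaemias of recipients 1300, 1301, 1302 and 1308 had 43.4, 0, 102 and 58.1, which were 33, 0, 82 and 42 reads. Pax5 KO libraries held 0, 0, 4.29 and 0, of which the only positive value was 5 reads, and Pax5 WT libraries held 31.2, 16.0, 18.8 and 28.4. Recipients 1300, 1302 and 1308 were thus above every Pax5 WT library, and recipient 1301, with 0 reads, which allows up to 3, was below all of them. The fitted difference between P80R B-ALL and Pax5 WT was -0.06 ± 1.29 (95% interval -2.96 to 2.84, adjusted p = 0.976), and without recipient 1301 it was 1.44 (adjusted p = 0.0481). Between the fetal liver groups, Cr2 fell by 3.97 ± 0.65 in Pax5 KO (adjusted p = 0.000155), a difference of -2.26 with a pseudocount of 5. It was not tested between P80R B-ALL and Pax5 KO, because fewer than 4 of these 8 libraries reached a value of 10. The sum of 8 follicular dendritic and stromal markers was 4065, 5488, 3020 and 27338 in recipients 1300, 1301, 1302 and 1308, against 997 to 1183 in Pax5 KO and 9.89 to 13.8 in Pax5 WT. Of these 8, the marker Cxcl13 was at 0 in all libraries of Pax5 KO and Pax5 WT, and Madcam1 and Clu in all of Pax5 WT. Because the list also holds stromal genes such as Col1a1 and Col3a1, its sum does not by itself show follicular dendritic cells. The number of the 8 above 0 was 6, 6, 7 and 7 in recipients 1300, 1301, 1302 and 1308.

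Ms4a1 encodes CD20 (ENSMUSG00000024673), a membrane protein that appears during B-cell development. It was at 0, 151, 4.96 and 685 in recipients 1300, 1301, 1302 and 1308, or 0, 123, 4 and 495 reads. Pax5 KO libraries held 0, 4.11, 0 and 0, with 5 reads behind the only positive value. Pax5 WT libraries held 1436, 1102, 1136 and 1297. All leukaemia libraries were below all Pax5 WT libraries, but those of recipients 1300 and 1302 were at the level of Pax5 KO. Against Pax5 WT, Ms4a1 fell by 5.46 ± 1.78 in P80R B-ALL (95% interval -9.51 to -1.41, adjusted p = 0.0370). Means were 210.3 ± 324 and 1243 ± 154 (SD, n = 4 each), whose log2 ratio was -2.56. This call was lost on recovered reads with edgeR (-2.57, adjusted p = 0.168) and DESeq2 (-2.52, adjusted p = 0.197), and without recipient 1302 (adjusted p = 0.0722) or any of the Pax5 WT libraries (adjusted p = 0.0723 to 0.0850). Of the 9 genes Ms4a1 had the largest difference between the fetal liver groups, and fell by 9.68 ± 0.48 in Pax5 KO (adjusted p = 2.91e-09). Between P80R B-ALL and Pax5 KO it was left out of the test for low values, and these groups overlapped.

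Fcmr encodes the receptor for the Fc part of IgM (ENSMUSG00000042474). It was at 10.5, 4.92, 4.96 and 482 in recipients 1300, 1301, 1302 and 1308, at 10.7, 14.8, 5.14 and 0 in Pax5 KO, and at 124, 118, 79.1 and 128 in Pax5 WT. The leukaemia of recipient 1308 had 348 reads, where the other 3 had 8, 4 and 4. Its value was above every Pax5 WT library, and those of the other recipients were below every Pax5 WT library. The mean was 125 ± 237 in P80R B-ALL and 112 ± 22.5 in Pax5 WT, although the fitted difference on the log scale was -2.40 ± 1.28 (95% interval -5.29 to 0.48, adjusted p = 0.162). Without recipient 1308 it was -3.91 (adjusted p = 0.000288), and on recovered reads it was 0.14 with edgeR (adjusted p = 0.941) and 0.20 with DESeq2, which gave no adjusted p. Against Pax5 KO the difference was 1.86 ± 1.52 (adjusted p = 0.355), and it was 0.35 without recipient 1308, 4.06 with edgeR (adjusted p = 0.102) and 4.10 with DESeq2. Fcmr fell by 4.26 ± 0.70 in Pax5 KO against Pax5 WT (adjusted p = 0.000161).

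Fcrla encodes an Fc receptor-like protein (ENSMUSG00000038421) that stays inside B-lineage cells. It was at 22.4, 2.46, 22.3 and 4319 in recipients 1300, 1301, 1302 and 1308, at 30.5, 40.3, 23.1 and 25.3 in Pax5 KO and at 1357, 1391, 1300.1 and 1552 in Pax5 WT. As for Fcmr, the leukaemia of recipient 1308 lay above Pax5 WT, while the other 3 lay below it and also below the lowest Pax5 KO library. The spread between recipients, a standard deviation of 4.42 on the log2 scale, was exceeded by 0.328% of all genes. The difference between P80R B-ALL and Pax5 WT was -4.71 ± 1.83 (adjusted p = 0.0682). It was -6.82 (adjusted p = 0.000122) without recipient 1308, but -0.38 (adjusted p = 0.876) with edgeR and -0.32 with DESeq2 on recovered reads, where DESeq2 gave no adjusted p. Against Pax5 KO the difference was 0.83 ± 1.86 (95% interval -3.38 to 5.03, adjusted p = 0.749) and turned to -1.29 (adjusted p = 0.185) without recipient 1308. With edgeR it was 5.23 (adjusted p = 0.0757) and with DESeq2 5.25. Fcrla fell by 5.54 ± 0.17 in Pax5 KO against Pax5 WT (adjusted p = 3.43e-11). Recipient 1308 is the library with the high mature B-cell, erythroid and granulocyte marker sums given above.

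Slamf6 encodes a self-binding receptor of the SLAM family (ENSMUSG00000015314). It was at 465, 2453, 6369 and 6377 in recipients 1300, 1301, 1302 and 1308. Pax5 KO libraries held 13.7, 8.22, 12.9 and 5.78, and Pax5 WT libraries 941, 845, 814 and 849.8. Recipients 1301, 1302 and 1308 were above all Pax5 WT libraries and recipient 1300 was below them. Slamf6 rose in P80R B-ALL against Pax5 KO by 7.94 ± 0.79 (adjusted p = 0.000298), with no overlap. Against Pax5 WT the difference was 1.60 ± 0.74 (95% interval -0.09 to 3.28, adjusted p = 0.116). It passed the threshold without recipient 1300 (2.43, adjusted p = 0.000923) and on recovered reads with edgeR (2.18, adjusted p = 0.0310) and DESeq2 (2.22, adjusted p = 0.000468). Slamf6 fell by 6.34 ± 0.25 in Pax5 KO against Pax5 WT (adjusted p = 2.86e-10).

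Cd38 encodes an ectoenzyme (ENSMUSG00000029084) that breaks down NAD outside the cell and makes cyclic ADP-ribose. It was at 2998, 1083, 8433 and 8768 in recipients 1300, 1301, 1302 and 1308. Pax5 KO libraries held 0, 6.57, 1.71 and 2.17, and Pax5 WT libraries 684, 824, 672 and 698. Every leukaemia was above every Pax5 WT library, which in turn were above every Pax5 KO library. Cd38 rose in P80R B-ALL against Pax5 WT by 2.45 ± 0.60 (adjusted p = 0.0109), with means of 5321 ± 3869.9 against 719.6 ± 70.6 (SD, n = 4 each). This was the only one of the 9 genes to be called in this comparison whichever library was left out. It missed the threshold when each group was weighted in a fit to all 12 libraries (adjusted p = 0.165). Against Pax5 KO it rose by 10.44 ± 0.80 (adjusted p = 0.000105), the largest difference of the tested genes among the 9. It fell by 7.98 ± 0.48 in Pax5 KO against Pax5 WT (adjusted p = 1.82e-08).

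Cd24a encodes the small glycolipid-anchored protein CD24, or heat-stable antigen (ENSMUSG00000047139), which marks immature B-lineage cells. It was at 60062, 49867, 16038 and 23548 in recipients 1300, 1301, 1302 and 1308. Pax5 KO libraries held 7486, 8048, 7422 and 8080.2, and Pax5 WT libraries 74549.8, 70778, 67951 and 79703. The groups did not overlap, and the leukaemias lay between the other groups, as for Cd22. Cd24a fell by 1.16 ± 0.38 in P80R B-ALL against Pax5 WT (adjusted p = 0.0344). This call was lost without recipient 1302 (adjusted p = 0.0504), recipient 1308 (adjusted p = 0.0712) or any of the Pax5 WT libraries (adjusted p = 0.0704 to 0.0788) and with edgeR on recovered reads (-0.95, adjusted p = 0.0767). It rose against Pax5 KO by 2.07 ± 0.38 (adjusted p = 0.00383) and fell by 3.24 ± 0.06 in Pax5 KO against Pax5 WT (adjusted p = 5.20e-13). The sources used here do not say how reads shared with other Cd24 copies of the genome were counted.

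**Figure D3:**
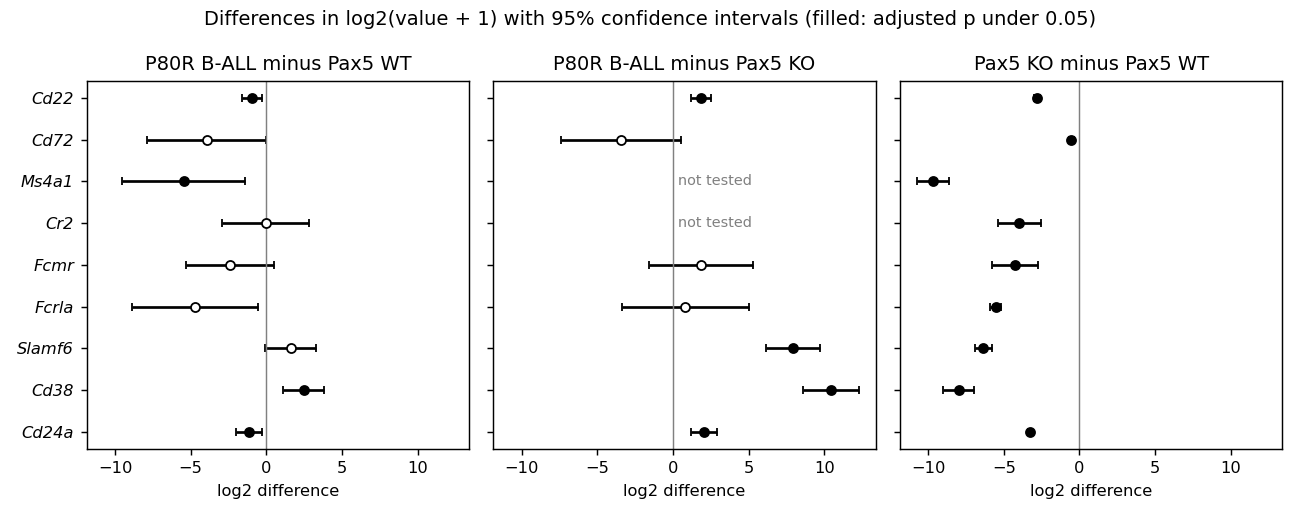
Difference of the group means on the log2(value + 1) scale with its 95% confidence interval from limma for each gene in P80R B-ALL minus Pax5 WT, P80R B-ALL minus Pax5 KO and Pax5 KO minus Pax5 WT. Filled points passed an adjusted p of 0.05, which 4 of 9, 4 of 7 and 9 of 9 did, against 40.6%, 39.0% and 66.4% of all genes tested. Cd38, Cr2 and Ms4a1 in Pax5 KO minus Pax5 WT passed the filter on low values through Pax5 WT alone. Cd38 in P80R B-ALL minus Pax5 KO passed it through the leukaemias alone. The filter fixed the direction of these points, and the counts include them.

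P80R B-ALL against Pax5 WT sets the leukaemia beside normal pro-B and pre-BI cells. Of the 9 genes, 4 passed the threshold, Cd38 higher and Cd22, Cd24a and Ms4a1 lower, where 40.6% of all 11615 genes tested were called, 20.8% higher and 19.8% lower. The share among the 9 was close to that background. Their median difference was -1.16, against -0.03 over all genes. The same 4 genes were those whose libraries did not overlap, which 41.5% of all genes did. Leaving out 1 library at a time left between 1 and 6 of the 9 called, where 29.1% to 44.9% of all genes were called. Leaving out recipients 1300 and 1308 together left 8, where 44.6% of all genes were called.

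P80R B-ALL against Pax5 KO sets the leukaemia beside cells that lack the factor. Here 4 of the 7 tested genes, Cd22, Cd24a, Cd38 and Slamf6, rose and none fell, where 39.0% of 11914 genes were called, 17.9% higher and 21.2% lower. The remaining 3, Cd72, Fcmr and Fcrla, did not pass the threshold. The median difference of the 7 was 1.87, and that over all genes was -0.12. Those 4 genes did not overlap between the groups, and 43.1% of all genes did not. The calls on these 4 were made whichever library was left out. Cd38 stayed under 10 in every Pax5 KO library and passed the filter only through the leukaemias, so it could only rise here. The count, the median and the lack of overlap given here include Cd38, so they are not compared with those over all genes.

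In Pax5 KO against Pax5 WT all 9 genes fell, where 66.4% of 11576 genes were called, 36.1% higher and 30.3% lower. Cd38, Cr2 and Ms4a1 stayed under 10 in every Pax5 KO library and passed the filter only through Pax5 WT. The direction of these genes was therefore fixed by the filter, and their falls are not set against those shares. The median difference of the 9 was -4.26, and that over all genes was 0.05. The first includes Cd38, Cr2 and Ms4a1, so the medians are not compared. No library of Pax5 KO reached the lowest Pax5 WT library in any of the 9, and 60.8% of all genes had groups that did not overlap. For Cd38, Cr2 and Ms4a1 the filter fixed this too. The differences ran from -0.55 for Cd72 to -9.68 for Ms4a1. The 9 were called lower whichever library was left out. The P80R B-ALL comparisons share their leukaemia libraries, and each shares its other group with this comparison, so the 3 are not independent.

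**Figure D4:**
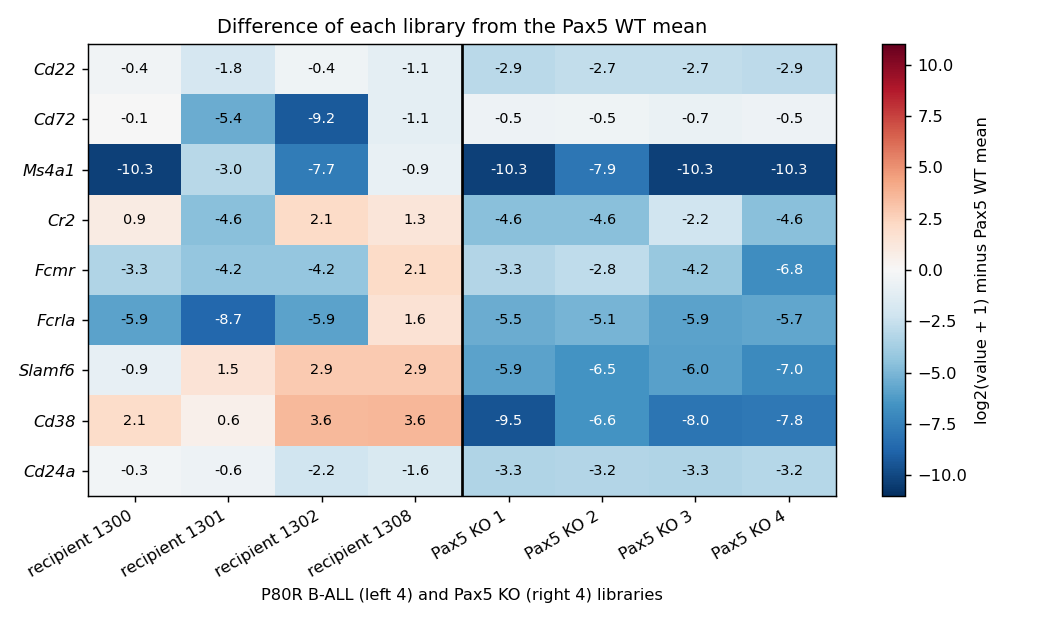
Difference of each P80R B-ALL library (left) and each Pax5 KO library (right) from the Pax5 WT mean on the log2(value + 1) scale, per gene. The Pax5 KO columns are below 0 throughout, while the column of recipient 1308 is above 0 for Cr2, Fcmr, Fcrla, Slamf6 and Cd38.

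Each leukaemia had its own mixture of these genes. Recipient 1308 was above the Pax5 WT range for 5 of the 9 genes and below it for 4. Recipient 1300 was above for 2, within for 1 and below for 6, recipient 1301 above for 2 and below for 7, and recipient 1302 above for 3 and below for 6. Cd38 was above the range in every recipient, and Cd22, Cd24a and Ms4a1 were below it in every recipient. After Fcrla, the widest spreads between recipients were those of Ms4a1 and Cd72, with standard deviations of 4.30 and 4.20 on the log2 scale, which 0.427% and 0.501% of all genes exceeded. In Pax5 KO the standard deviations of Fcrla, Ms4a1 and Cd72 were 0.34, 1.18 and 0.10, and in Pax5 WT they were 0.11, 0.18 and 0.12. The spread of Ms4a1 in Pax5 KO comes from 5 reads in 1 library and 0 in the others.

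Levels can be set beside each other per kilobase of exon. On that scale Cd24a was the highest of the 9 in each group, with means of 14488 per kilobase in P80R B-ALL, 3007 in Pax5 KO and 28389.7 in Pax5 WT. The mean of Cd38 was 1368 per kilobase in P80R B-ALL, 0.672 in Pax5 KO and 185 in Pax5 WT. Among the 9 genes Cd38 ranked 4, 3, 2 and 3 in recipients 1300, 1301, 1302 and 1308, behind Cd24a in each of them, and also behind Cd72 and Cd22 in 1300, Cd22 in 1301 and Fcrla in 1308. In Pax5 KO the next was Cd72 at 708 per kilobase, and in Pax5 WT it was Cd22 at 1099, with Cd72 close to it at 1036. Means of Fcrla, Cd22, Cd72 and Slamf6 in P80R B-ALL lay between 362 and 626 per kilobase, and their ranges over the recipients overlapped. Cr2 had the lowest mean, 6.26 per kilobase in P80R B-ALL, 0.132 in Pax5 KO and 2.91 in Pax5 WT. It was the lowest in each Pax5 WT library and in recipients 1301 and 1308, while Ms4a1 was the lowest in recipients 1300 and 1302.

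Genes that work with these 9 were followed in lists of their pathways, several of which also hold some of the 9. Of the inhibitory receptors with an ITIM, the tyrosine motif of CD22 and CD72, 2 of 12 tested genes were higher and 2 lower in P80R B-ALL than in Pax5 WT, and 2 of 13 were higher and none lower than in Pax5 KO. In Pax5 KO against Pax5 WT, 5 of 12 rose and 7 fell. The list medians were 0.16, -0.17 and -0.44, against -0.03, -0.12 and 0.05 over all genes. Of all genes tested, 40.6%, 39.0% and 66.4% were called in these comparisons, which is the background for every list below. Those that fell in Pax5 KO included Siglecg, a relative of CD22 that binds sialic acid, with 49.0 ± 12.8 in Pax5 KO and 2499 ± 65.7 in Pax5 WT. Those that rose included receptors known from myeloid cells, such as Pirb, with 141 ± 23.2 in Pax5 KO and 15.8 ± 6.18 in Pax5 WT, and Cd300a, with 188 ± 21.1 in Pax5 KO and 0.43 ± 0.86 in Pax5 WT. Fcgr2b, the inhibitory IgG receptor, fell in P80R B-ALL to 766 ± 836, against 1560.1 ± 109.9 in Pax5 WT (log2 difference -1.54 ± 0.54, adjusted p = 0.0479). Lair1, an inhibitory collagen receptor, averaged 4259.5 ± 7405 in P80R B-ALL, 144 ± 39.7 in Pax5 KO and 22.5 ± 14.4 in Pax5 WT. Lair1 is itself on the plasmacytoid dendritic marker list, whose sums are given above. Against Pax5 KO, 2 genes of this list were higher and 3 lower without recipient 1308, where 44.3% of all genes were called. Without recipients 1300 and 1308, 3 were higher and 6 lower, where 49.8% of all genes were called.

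The list of kinases, phosphatases and adaptors that act with ITIM receptors had 2 of 10 tested genes higher and none lower in P80R B-ALL than in Pax5 WT. Those 2 were the adaptors Dok1 and Dok2, and no kinase or phosphatase of the list passed the threshold there. Against Pax5 KO, 1 gene of the list was higher and 2 were lower. Dok1, an adaptor that dampens kinase signals, averaged 1352 ± 78.7 in P80R B-ALL, 809 ± 51.3 in Pax5 KO and 919.8 ± 39.2 in Pax5 WT, and was higher in the leukaemias in both comparisons (adjusted p = 0.00248 and 0.00792). Ptpn6, the phosphatase SHP-1, rose in Pax5 KO to 9965 ± 167, against 6419.8 ± 149 in Pax5 WT. In that comparison 3 of the 10 rose and 4 fell. The list medians were -0.08, 0.28 and -0.04 in the same order of comparisons, where 40.6%, 39.0% and 66.4% of all genes were called.

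Ligands of these receptors and the enzymes that make them had 1 of 5 tested genes higher in P80R B-ALL than in Pax5 WT and 1 lower than in Pax5 KO. Cmah, the enzyme that makes the sialic acid that mouse CD22 prefers, rose in P80R B-ALL to 3635 ± 2382, against 722 ± 31.8 in Pax5 WT (adjusted p = 0.00860), and Pax5 KO was at 5955 ± 185. Sema4d, which encodes the CD72 ligand CD100, averaged 4018 ± 1282 in P80R B-ALL, 6855 ± 196 in Pax5 KO and 4409 ± 405 in Pax5 WT, and fell in P80R B-ALL against Pax5 KO (adjusted p = 0.0150). Of the 5, 2 rose and 2 fell in Pax5 KO against Pax5 WT. The list medians were 0.01, 0.19 and -0.18, where 40.6%, 39.0% and 66.4% of all genes were called. Without recipients 1300 and 1308, 1 of the 5 was higher and 2 lower in each leukaemia comparison. In that setting 44.6% of all genes were called against Pax5 WT and 49.8% against Pax5 KO.

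Among Fc receptors and Fc receptor-like genes, 6 of 10 tested genes were higher and 1 lower in P80R B-ALL than in Pax5 WT, and 3 of 9 were higher and none lower than in Pax5 KO. Between Pax5 KO and Pax5 WT 5 of 9 rose in Pax5 KO and 4 fell. The medians were 3.31, 1.19 and 1.36, where 40.6%, 39.0% and 66.4% of all genes were called. Several that were higher are known from myeloid cells: Fcgr4 averaged 395 ± 467 in P80R B-ALL and 5.10 ± 3.59 in Pax5 KO and was at 0 in all Pax5 WT libraries, and Fcgr3 averaged 1513 ± 1003, 232 ± 27.6 and 0.709 ± 1.42 in the same order. Their granulocyte and monocyte marker sums are given above, and Fcgr3 is itself on that marker list. Both genes passed the filter against Pax5 WT only through the leukaemias. Fcrl1, a B-cell gene of the family that holds Fcrla, averaged 859 ± 159 in P80R B-ALL, 372 ± 21.8 in Pax5 KO and 146 ± 24.5 in Pax5 WT, and was higher in the leukaemias in both comparisons (adjusted p = 0.00158 against Pax5 KO and 5.99e-05 against Pax5 WT). Unlike Fcrla, it was above both other groups in all 4 recipients. Without recipients 1300 and 1308, 4 of the 9 were higher and 2 lower than in Pax5 KO, where 49.8% of all genes were called.

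In the SLAM family with its SAP adaptors, 4 of 9 tested genes were higher and none lower in P80R B-ALL than in Pax5 WT, and 6 of 9 higher and none lower than in Pax5 KO. Pax5 KO had 4 of 9 higher and 4 lower than Pax5 WT. The medians were 0.82, 2.00 and -0.08, where 40.6%, 39.0% and 66.4% of all genes were called. Cd48, a ligand within the family, averaged 14200.0 ± 3756 in P80R B-ALL, 5355 ± 214 in Pax5 KO and 4236 ± 443 in Pax5 WT, a log2 difference of 1.71 ± 0.19 from Pax5 WT (adjusted p = 0.000188). Slamf7 was at 1720.0 ± 833, 10.2 ± 5.96 and 1107 ± 94.4 in P80R B-ALL, Pax5 KO and Pax5 WT, which is the order of Slamf6. Sh2d1b1, a SAP-related adaptor also known as EAT-2, averaged 1845 ± 1360.5, 226 ± 11.7 and 0.50 ± 1.0 in that order of groups.

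The MS4A family, to which CD20 belongs, had 5 of 9 tested genes higher in P80R B-ALL than in Pax5 WT, and the only 1 that was lower was Ms4a1. Against Pax5 KO, 4 of 8 were higher and none lower, and in Pax5 KO against Pax5 WT 3 of 7 rose and Ms4a1 alone fell. The medians were 3.35, 2.65 and 0.29, where 40.6%, 39.0% and 66.4% of all genes were called. Ms4a7 averaged 584 ± 586 in P80R B-ALL, 6.97 ± 4.96 in Pax5 KO and 0.247 ± 0.494 in Pax5 WT. Ms4a4b averaged 1123 ± 998 in P80R B-ALL, 95 ± 5.54 in Pax5 KO and 25.8 ± 12.1 in Pax5 WT. Against Pax5 KO, 3 of 8 were higher and none lower without recipient 1308, and 7 were higher and 1 lower without recipients 1300 and 1308, where 49.8% of all genes were called. Macrophage markers, 11 genes, summed to 6216, 4879, 3801 and 25490 in recipients 1300, 1301, 1302 and 1308, against 821 to 1053 in Pax5 KO and 0 to 16.8 in Pax5 WT, where 10 of the 11 were at 0. Their part in these differences was not tested.

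Of the NAD and nucleotide ectoenzymes, the group of Cd38, 4 of 7 tested genes were higher and 1 lower in P80R B-ALL than in Pax5 WT, and 4 of 7 higher and none lower than in Pax5 KO. Pax5 KO had 2 of 5 higher and 3 lower than Pax5 WT. The medians were 1.88, 1.79 and -0.69, where 40.6%, 39.0% and 66.4% of all genes were called. Bst1, the closest relative of Cd38, fell in Pax5 KO to 41.1 ± 14.8, against 2437 ± 163 in Pax5 WT (log2 difference -5.92 ± 0.20, adjusted p = 8.08e-11), and was the gene of this list that was lower in P80R B-ALL than in Pax5 WT. Dpp4, the peptidase CD26, averaged 19004 ± 8995 in P80R B-ALL, 6089 ± 564 in Pax5 KO and 4749.8 ± 690.0 in Pax5 WT, and was higher in the leukaemias in both comparisons (adjusted p = 0.00590 and 0.00146).

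Among 29 other tested B-lineage surface antigens, 11 were higher and 5 lower in P80R B-ALL than in Pax5 WT, 15 of 28 higher and 2 lower than in Pax5 KO, and 12 of 29 higher and 14 lower in Pax5 KO than in Pax5 WT. The medians were 1.15, 1.54 and -0.10, where 40.6%, 39.0% and 66.4% of all genes were called. Ly86, the partner chain of the RP105 receptor, averaged 18147 ± 6909 in P80R B-ALL, 338 ± 18.9 in Pax5 KO and 6.68 ± 4.00 in Pax5 WT. Cd52 averaged 31684 ± 9526 in P80R B-ALL, 2682 ± 157 in Pax5 KO and 3473 ± 431 in Pax5 WT. Cd79b, which carries signals of the B-cell receptor, averaged 23081 ± 5749 in P80R B-ALL, 3423 ± 68.2 in Pax5 KO and 34366 ± 3565 in Pax5 WT, the same order of means as for Cd22 and Cd24a.

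**Figure D5:**
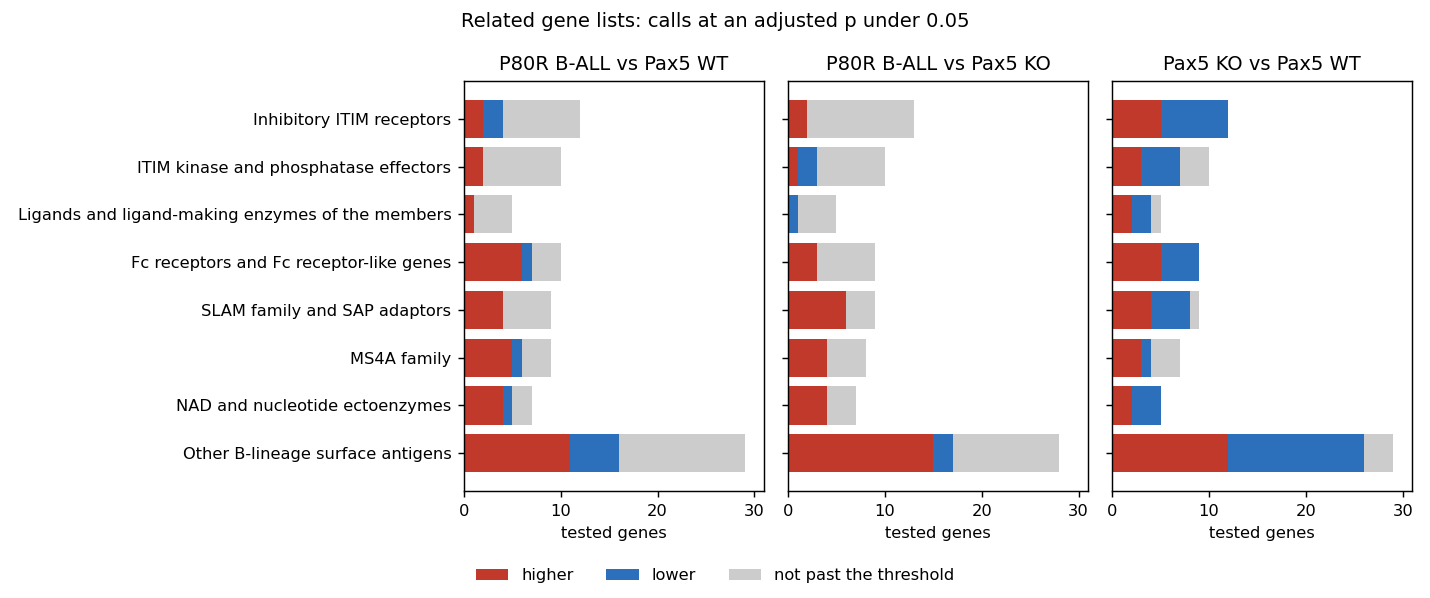
Number of tested genes higher, lower or not past an adjusted p of 0.05 in each related list, for P80R B-ALL vs Pax5 WT, P80R B-ALL vs Pax5 KO and Pax5 KO vs Pax5 WT. In P80R B-ALL vs Pax5 KO no gene was called lower in 5 of the 8 lists, where 21.2% of all genes tested were. Those lists had only 7 to 13 tested genes each. Their genes Cd38, Art2b and Ms4a4d stayed under 10 in Pax5 KO and could not be called lower.

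The genes whose profiles were most like each of the 9 were found by the root mean square difference over the 12 libraries, each profile centred on its own mean on the log2(value + 1) scale, among 12179 genes. The closest match of all was that of Cd22 with Sdc4, a surface proteoglycan, at a root mean square difference of 0.33, followed by Agpat3 at 0.38 and Traf3ip2 at 0.42. The nearest to Cd24a were Lig4 at 0.50, Vpreb1, a chain of the pre-B-cell receptor, at 0.54, and B3gnt2 at 0.55. Cd72 had Xlr4b at 0.89, St6galnac3 at 0.94 and Lpar1 at 0.99. Slamf6 and Cd38 both had the calcium channel gene Cacna1h as their nearest, at 1.11 and 1.38, and Slamf6 was itself the second nearest to Cd38 at 1.52, with Slamf7 the third at 1.85. For Slamf6 the others were Kcnk10 at 1.27 and Pla2g7 at 1.29. Fcrla had Atp1b1 at 0.99, Plxdc1 at 1.00 and Dnah12 at 1.18. Fcmr had Rap1gap2 at 1.11, Pianp at 1.22 and Dnah12 at 1.22, so Dnah12 was near to both genes that were high in recipient 1308. Cr2 had Hivep3 at 1.17, Pla2g4c at 1.22 and Slc15a3 at 1.23, and Ms4a1 had the cytokine receptor gene Il5ra at 1.45, Myom2 at 1.96 and Ikzf3 at 2.03. These are descriptions over libraries that share their groups.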

How the data were processed

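RNA of sorted cells was isolated with a column kit and made into SMART-Seq v4 libraries, which do not mark strand, per the labels' protocols. The submitters' processing notes name featureCounts, STAR 2.7.8a and fastp and the mm39 build. The annotation and the handling of shared reads are stated in none of the sources used. As deposited, the signal values were scaled read counts, since 100% of them were whole multiples (tolerance 0.001) of 1 step per library. The authors must have divided counts by a factor, and multiplying gave reads back. Of 21885 identifiers, 21780 matched a symbol in GENCODE M21, an older mouse annotation also used for exon lengths.

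Differences are means of log2(value + 1), which understates changes of low genes. They were tested with limma 3.58.1 (trend and robust, two-sided) in R 4.3.3 on the 4 libraries of each of the groups compared, for genes that reached 10 in 4 or more of these libraries. P-values were Benjamini-Hochberg adjusted over all genes tested, with a threshold of 0.05. The fit was tested on simulated data. On recovered reads, edgeR 4.0.16 called 4608 genes in P80R B-ALL against Pax5 WT, 4318 against Pax5 KO and 7678 in Pax5 KO against Pax5 WT, and DESeq2 1.42.0 was run too. Other alternatives were fits to all 12 libraries, pseudocounts of 0.5 and 5, no filter or one at 50, other scalings, a replicate block and leaving out libraries. The leukaemias came from separate recipients. No label says whether the fetal liver libraries came from separate embryos, so their p-values measure only the spread between these samples.

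Genes named are the 9 and Pax5, up to 3 called genes per list and comparison with the smallest adjusted p, of which the text takes some, Bst1, and the 3 nearest profiles per gene. Marker genes Fcer2a, Cd40, H2-Aa, Cxcl13, Madcam1 and Clu, and Tesk1, were chosen after their values were seen. A further list is not reported here. The 9 genes and all lists were chosen with earlier results of these data known.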

Additional observations from a re-analysis of the deposited data

Results flagged for a closer look

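In 5 of the 27 sets of 4 libraries (9 genes in 3 groups), 1 library stood further from the rest than a Dixon test at the 95% level allows. That level holds for normally spread values, and the values here were scaled read counts without logs. The number of flagged sets is therefore not set against chance. Fcrla was at 4319 in recipient 1308, a gap to the nearest other leukaemia of 0.995 of the whole range, and Fcmr was at 481.6 in the same recipient, a gap of 0.988. These values are from the library with the highest sums of mature B-cell and erythroid markers, whose part in them was not tested. Cd38 was at 824 in Pax5 WT library 2, a gap of 0.834, with the other Pax5 WT libraries at 672 to 698. Cr2 was at 4.29 in Pax5 KO library 3 and Ms4a1 at 4.11 in Pax5 KO library 2, each from 5 reads where the other 3 Pax5 KO libraries had 0. A set with 0 in all libraries but 1 is always flagged by this rule.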

How the results depend on the processing

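Of the 467 values of the 9 genes recomputed under other settings, 420 kept their direction and their side of the threshold, 21 lost and 17 gained the call, and 9 turned their sign. In P80R B-ALL against Pax5 WT, 4 of the 9 genes were called, 1 to 6 when 1 library was left out (29.1% to 44.9% of all genes) and 8 without recipients 1300 and 1308 (44.6% of all genes). The difference of Cr2, -0.06, was 0.36 with a pseudocount of 5, 1.10 with edgeR, 1.13 with DESeq2 and -0.78 to 1.44 when 1 library was left out. That of Fcmr, -2.40, was 0.14 with edgeR (adjusted p = 0.941, and 0.000198 to 0.941 over the alternatives). Against Pax5 KO, that of Fcrla, 0.83, was -1.29 to 2.14 when 1 library was left out, -1.75 without recipients 1300 and 1308 and 5.23 with edgeR. Without the filter on low values Cr2 and Ms4a1 could be tested there, at 3.91 (adjusted p = 0.0617) and 4.22 (adjusted p = 0.115). The cause of these changes was not tested.

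Over all genes, 4652 were called in P80R B-ALL against Pax5 KO and 3101 to 5273 when 1 library was left out. Of the 4652, 2127 were higher and 2525 lower, against 2499 higher and 1819 lower with edgeR and 2903 and 2173 with DESeq2. In Pax5 KO against Pax5 WT 7684 were called, and 4084 when all 12 libraries shared 1 spread. Libraries with the same number in Pax5 KO and Pax5 WT did not deviate together (correlations of -0.005, 0.001, 0.009 and 0.092), so the numbers were not taken as pairs. With a replicate block 7776 genes were called, and no call of the 9 genes changed. Values near 0, those of Cr2, Ms4a1 and Fcmr in Pax5 KO among them, rest on few reads, and the pseudocount sets part of their differences. Leaving out recipients after seeing the marker sums moved counts of several related lists, as given with each list.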
